A study of Rattus norvegicus with 30 samples.

Results

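The genes described here encode the eukaryotic translation initiation factors of the rat, the proteins that bring a ribosome, the initiator tRNA and a messenger RNA together, with the kinases and binding proteins that carry an Eif symbol. The members are all genes whose symbol starts with Eif and that have at least 1 probe set annotated to them alone. There were 49 such genes among the 14217 genes with a probe set of their own on the array. For each gene the probe set that was brightest on average over the 30 arrays stands for it, and any others served as a check. The 49 genes had 75 probe sets, of which 71 exceeded their array's median on at least 5 arrays, the filter used for testing. All 49 genes had a probe set past this filter, among 10222 genes tested, where 48 exceeded the median on all 30 arrays. Eif5a2 did so on 10 arrays, 9 of them at 100 uM, and so entered through the group where it was high. It is included in counts of 49 members, and the main counts at 100 uM are also given without it. A further 5 probe sets are shared with a second gene, and Eif3e and Eif5 are measured by such probe sets alone.

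The cells were frozen hepatocytes of male Sprague Dawley rats, bought from a supplier, plated on collagen and covered with Matrigel. They were dosed on day 3 of culture with methapyrilene HCl, an antihistamine and a rat liver carcinogen, or with the vehicle DMSO. The 6 groups were 100 uM methapyrilene for 24 h and for 48 h, 3 uM methapyrilene for 24 h and for 48 h, and DMSO for 24 h and for 48 h, each with 5 arrays from 5 separate wells. The labels give DMSO as 1%, while the protocol places 1% DMSO in the concentrated dosing solutions, so its share in the medium is uncertain. No source used here names the number of rats behind the cells, and p-values reflect only how much wells varied.

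Initiation starts when eIF2, loaded with GTP and initiator tRNA, joins the small ribosomal subunit together with eIF1, eIF1A, eIF3 and eIF5. The eIF4F complex, made of the cap-binding protein eIF4E, the scaffold eIF4G and the helicase eIF4A, brings the messenger RNA, and eIF5B joins the large subunit. Supply is regulated at both entry points: stress kinases (the Eif2ak genes) phosphorylate eIF2 alpha and so block its recycling by eIF2B, and the eIF4E-binding proteins (the Eif4ebp genes) hold eIF4E away from eIF4G until mTORC1 phosphorylates them. Both controls act on proteins, and the arrays measured RNA only.

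Values are the deposited linear signals of the probe sets, which the authors had scaled to a common level on every array (2% trimmed mean between 1500.5 and 1500.7). Of 8 hepatocyte markers, 7 had a probe set and all 7 passed the filter, with signals between 6159 on the lowest array of Hnf4a and 113035 on the highest array of Alb. Markers of other liver cells were dimmer as a rule, though a part of them passed the filter. Of those on the array, 5 of 8 Kupffer cell and leukocyte markers and 5 of 8 stellate cell and fibroblast markers passed. So did 2 of 5 cholangiocyte markers and 1 of 5 of sinusoidal endothelium. Among others Ptprc, Cd163, Adgre1, Krt7, Cftr, Stab2, Pecam1 and Vwf did not pass. The brighter exceptions were Epcam, at 8106 to 13855, Cd14, at 4143 to 12633, and Lyz2, at 5437 to 9094. On 3 arrays, replicates 1 to 3 of 3 uM at 24 h, the 3' to 5' ratio of the beta-actin control probe sets, a sign of RNA integrity and labelling, was 3.93 to 5.30, against 2.34 to 3.43 on the other 27 arrays. Counts of members called in comparisons with the 3 uM group at 24 h are given with and without these 3 arrays. Other results that use them, such as that of Eif1ad against 3 uM, are given with them only unless stated. The printed standard errors of all comparisons come from a fit that includes these 3 arrays.

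The 100 bases upstream of the annotated start are shown for 6 members, from RefSeq's promoter table of the GRCr8 assembly, 5′ to 3′ on the gene's strand. Eif4ebp3 and Eif1ad are shown because they had the smallest adjusted p-values among the members that fell and among those that rose. The others are the 4 members in which CACGTG, the E-box bound by Myc, Max and USF proteins, lay within 54 to 59 bases of the start, a window drawn after the positions were seen. Capitals mark CACGTG.
Eif4ebp3, chr18:28540224-28540323, plus strand: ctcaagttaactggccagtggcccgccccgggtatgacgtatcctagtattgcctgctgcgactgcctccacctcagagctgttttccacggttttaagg
Eif1ad, chr1:212103615-212103714, plus strand: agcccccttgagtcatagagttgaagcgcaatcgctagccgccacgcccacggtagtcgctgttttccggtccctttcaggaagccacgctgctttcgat
Eif1b, chr8:129081058-129081157, plus strand: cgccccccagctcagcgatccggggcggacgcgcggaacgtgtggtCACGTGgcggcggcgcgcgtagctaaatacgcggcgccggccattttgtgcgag
Eif3b, chr12:19334769-19334868, minus strand: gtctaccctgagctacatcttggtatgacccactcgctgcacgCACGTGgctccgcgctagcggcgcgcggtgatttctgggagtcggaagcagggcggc
Eif3f, chr1:172368962-172369061, plus strand: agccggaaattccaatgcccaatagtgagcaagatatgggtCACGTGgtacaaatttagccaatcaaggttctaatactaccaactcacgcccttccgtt
Eif4g1, chr11:93746368-93746467, minus strand: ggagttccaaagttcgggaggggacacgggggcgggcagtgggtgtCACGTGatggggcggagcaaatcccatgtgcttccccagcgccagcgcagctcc

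The promoter table held 45 of the 49 members, with 48 promoters. Within the 250 bases before the start, CACGTG, which reads the same on both strands, was found in 8 of the 48 promoters (16.7%), against 8.25% of the 9576 promoters of genes past the filter. The 8 genes were Eif1b, Eif3b, Eif3f, Eif4e, Eif4g1, Eif4h, Eif5a and Eif5a2. Its first base lay 54 bases before the start in Eif1b and Eif4g1, 57 in Eif3b and 59 in Eif3f, a window that held the motif in 0.397% of the promoters of genes past the filter. TGATGNAA, the composite element bound by ATF4 with C/EBP proteins, was searched on both strands and was found in 1 member, Eif2s2 (2.08% of the 48 promoters, against 1.86%). A match describes these letters only.

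At 100 uM more initiation factor genes rose than fell against DMSO, and 2 members of the cap-binding branch, Eif4ebp3 and Eif4e3, had less at both times. At 24 h 28 of the 49 members rose and 4 fell, while 19.8% of all genes tested rose and 15.8% fell. At 48 h 23 members rose and 2 fell, while 18.9% of all genes rose and 14.5% fell. A gene was called where limma's two-sided test, adjusted by Benjamini-Hochberg over the 10222 genes, gave p under 0.05. Without Eif5a2 the counts were 27 up and 4 down of 48 at 24 h, and 22 up and 2 down of 48 at 48 h. The median log2 fold change over the 49 members was 0.22 at 24 h and 0.21 at 48 h, beside 0.043 and 0.049 over all genes tested. With each array centred on its median, 15 members rose and 4 fell at 24 h, and 13 rose and 2 fell at 48 h, Eif5a2 among those that rose, with member medians of 0.18 and 0.16. Of all genes tested, 14.2% then rose and 15.6% fell at 24 h, and 12.2% rose and 15.1% fell at 48 h. Of all genes called, 47.5% at 24 h and 44.6% at 48 h were then higher, against 55.6% and 56.6% as deposited. Log2 fold changes of the members ranged from -0.86 to 1.07 at 24 h and from -1.37 to 1.03 at 48 h. The lowest were those of Eif4ebp3 and the highest those of Eif5a2.

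The groups did not overlap for 23 members at 24 h: in 20 every 100 uM array lay above every DMSO array, as in 14.5% of all genes, and in 3 every one lay below, as in 11.9%. At 48 h this held for 25 members upward (24 without Eif5a2), against 15.8% of all genes, and for 2 downward, against 12.1%. Called in the same direction at both times were 20 members upward (19 without Eif5a2), against 13.2% of all genes, and 2 downward, against 10.9%. A further 8 were called higher at 24 h alone (6.55% of all genes), 3 were called higher at 48 h alone (5.61%), and 2 were called lower at 24 h alone (4.91%). The other 14 were called at neither time, as were 55.1% of all genes.

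Markers of other cell types did not move one way at 100 uM. The summed signal of the 8 Kupffer cell and leukocyte markers on the array was 16105 to 17725 at 100 uM and 24 h, against 19204 to 23055 in DMSO, and 13317 to 16675 at 100 uM and 48 h, against 18611 to 21677 in DMSO. Cd14 and Lyz2 made up most of this sum and fell at both times, with log2 fold changes of -0.68 and -0.29 at 24 h and -1.05 and -0.21 at 48 h, while Cd68 rose (0.86 and 1.65). For the 5 cholangiocyte markers it was 11089.8 to 11967 at 100 uM and 24 h, against 9925 to 11037 in DMSO, and 11063 to 12023 at 100 uM and 48 h, against 12600 to 13594 in DMSO, and most of it was Epcam, which rose at 24 h (0.15) and fell at 48 h (-0.15). Krt19 fell at 48 h (-1.49). Of the 7 hepatocyte markers, Hnf4a (-0.37) and Fgb (-0.35) fell at 24 h and Apoh (-0.24) fell at 48 h. Of the stellate cell markers Des rose at 48 h (0.58). The part of these in the results was not tested, and fewer cells of a type cannot be told apart from less RNA per cell.

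**Figure D1:**
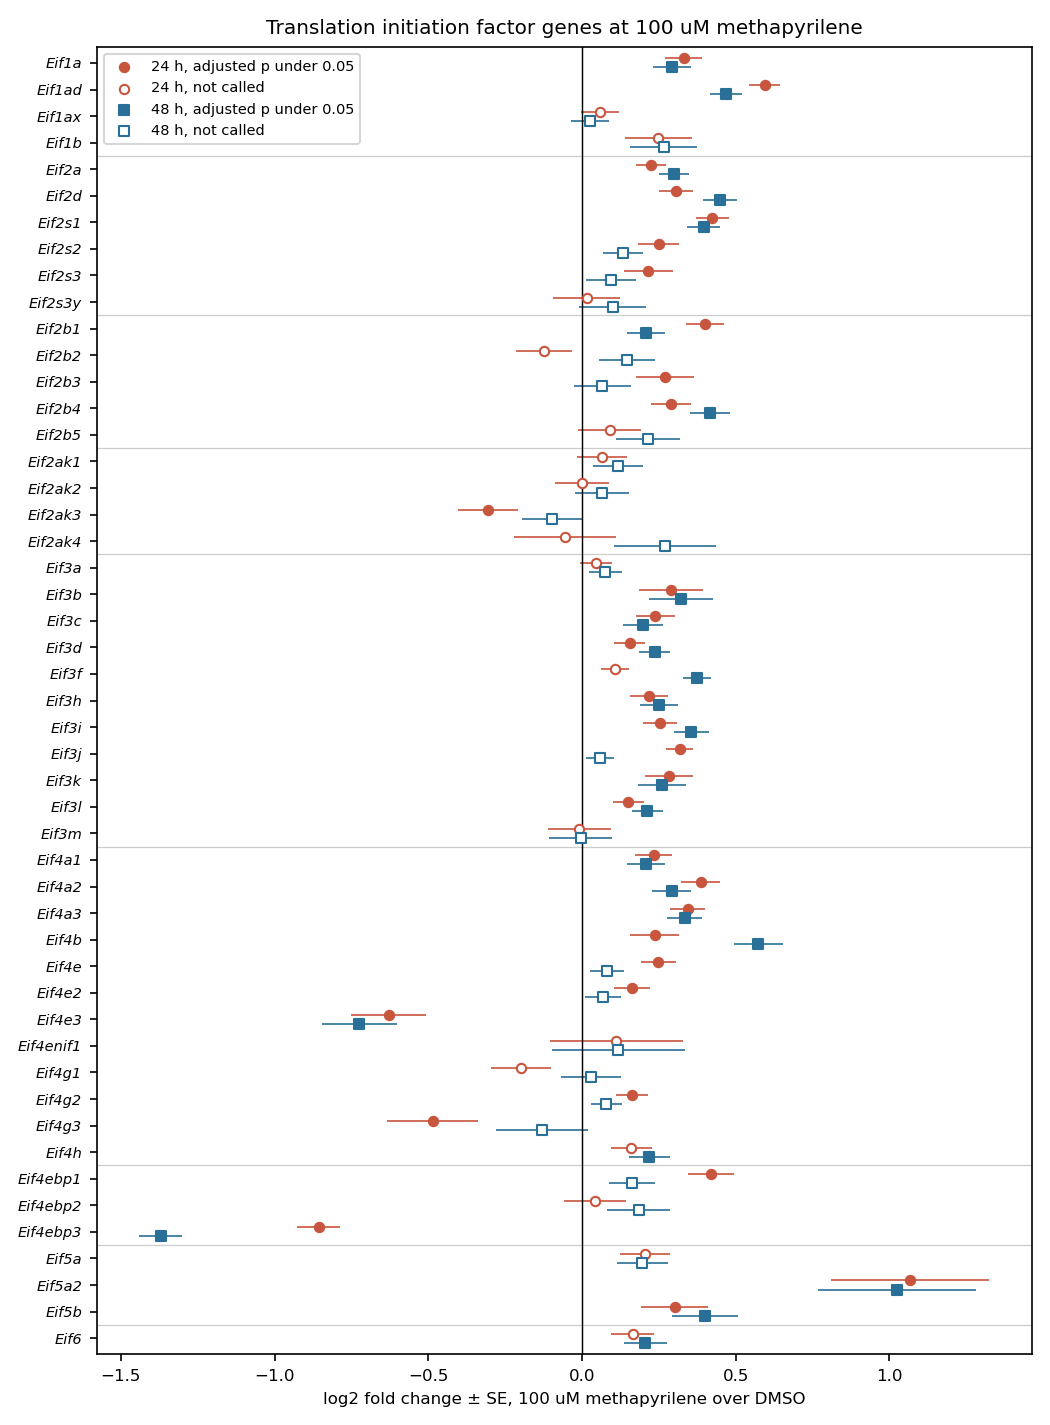
Log2 fold change with its standard error for each of the 49 members, 100 uM methapyrilene over DMSO, at 24 h (circles) and 48 h (squares), from a fit to 5 arrays a group; filled symbols passed an adjusted p of 0.05, and the symbols of Eif5a2 are a description only. Most symbols lie right of 0, and Eif4ebp3 lies farthest left, at -0.86 at 24 h and -1.37 at 48 h.

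**Figure D2:**
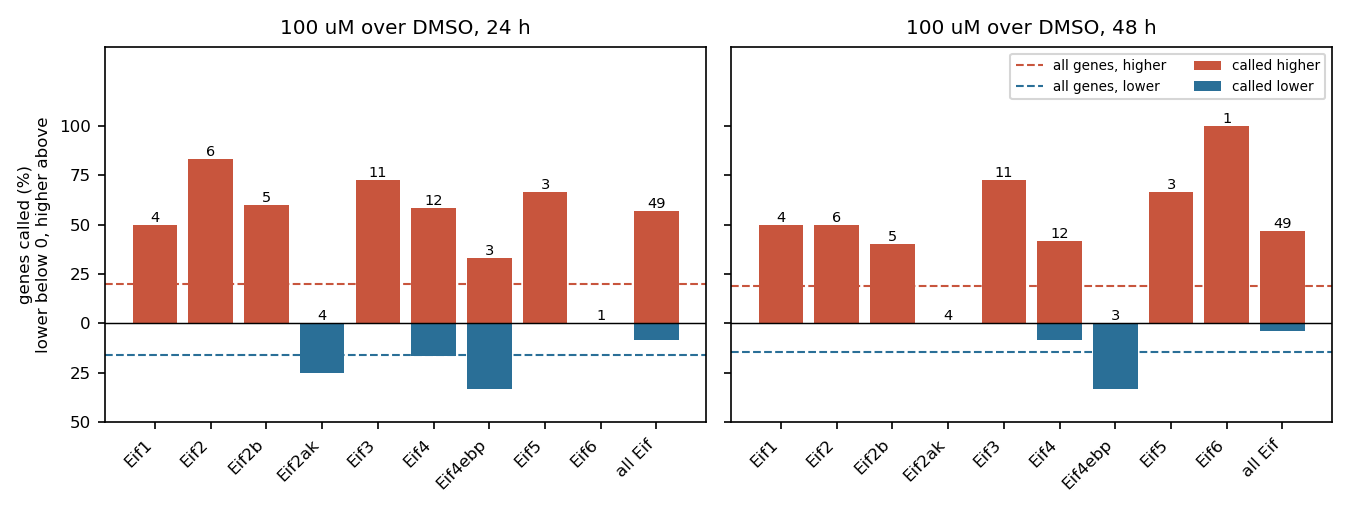
Percentage of the members of each class called higher (above 0) or lower (below 0) at 100 uM against DMSO, at 24 h and 48 h, with the number of members over each bar; dashed lines give the shares of all 10222 genes. The Eif3 class had 8 of its 11 members called higher at each time, the Eif5 bars of 2 of 3 include Eif5a2 and are 1 of 2 without it, and the 4 Eif2ak kinases had none.

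In the Eif1 class, 2 of 4 members rose at both times and none fell. Class counts here and below stand beside 19.8% of all genes higher and 15.8% lower at 24 h, and 18.9% and 14.5% at 48 h. The proteins eIF1 and eIF1A act in scanning the messenger RNA for the start codon. The class follows gene symbols, so membership does not show a part in scanning. Eif1ad, a relative of eIF1A, changed most. Its signal was 11923, 12749, 13132, 12045 and 11281 on the 100 uM arrays at 24 h, against 7517, 7930.4, 8458, 8155 and 8413 in DMSO. The 48 h arrays read 10182, 10977, 10940.1, 10604 and 10899.9 at 100 uM, against 7507, 8199, 8198, 7665 and 7199 in DMSO. No 100 uM array reached down to the DMSO range at either time, and the log2 fold change was 0.59 ± 0.051 (SE, adjusted p = 2.39e-11) at 24 h and 0.47 ± 0.051 (SE, adjusted p = 4.42e-09) at 48 h.

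Eif1a, annotated as eIF1A, had a signal of 9369, 8997, 9680.1, 8708 and 8196 at 100 uM and 24 h, against 6964, 7561, 7842, 6579 and 6821 in DMSO. At 48 h the arrays read 8428, 8219.8, 8942, 8126 and 8136 at 100 uM, against 6842, 6386, 7489.6, 6637 and 6851 in DMSO. All 100 uM arrays again lay above all DMSO arrays, with log2 fold changes of 0.33 ± 0.062 (SE, adjusted p = 5.94e-05) and 0.29 ± 0.062 (SE, adjusted p = 0.000308). The 3 other probe sets of Eif1a were also higher, with log2 fold changes of 0.31, 0.55 and 0.53 at 24 h, all called in a fit over all probe sets, and of 0.18, 0.36 and 0.33 at 48 h, of which the last was called. The close relatives Eif1ax (0.058 (adjusted p = 0.513) at 24 h and 0.027 (adjusted p = 0.788) at 48 h) and Eif1b (0.25 (adjusted p = 0.0769) and 0.27 (adjusted p = 0.0591)) did not pass the test, though every 100 uM array of Eif1b at 48 h (4926 to 5381) lay above the DMSO arrays (4078 to 4658). The test rests on the spread of all 6 groups. For Eif1b the SD of the signal was 986 at 3 uM and 24 h. At 48 h it was 175 at 100 uM and 223 in DMSO. Probe sets of near-identical copies such as Eif1a and Eif1ax may share signal.

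**Figure D3:**
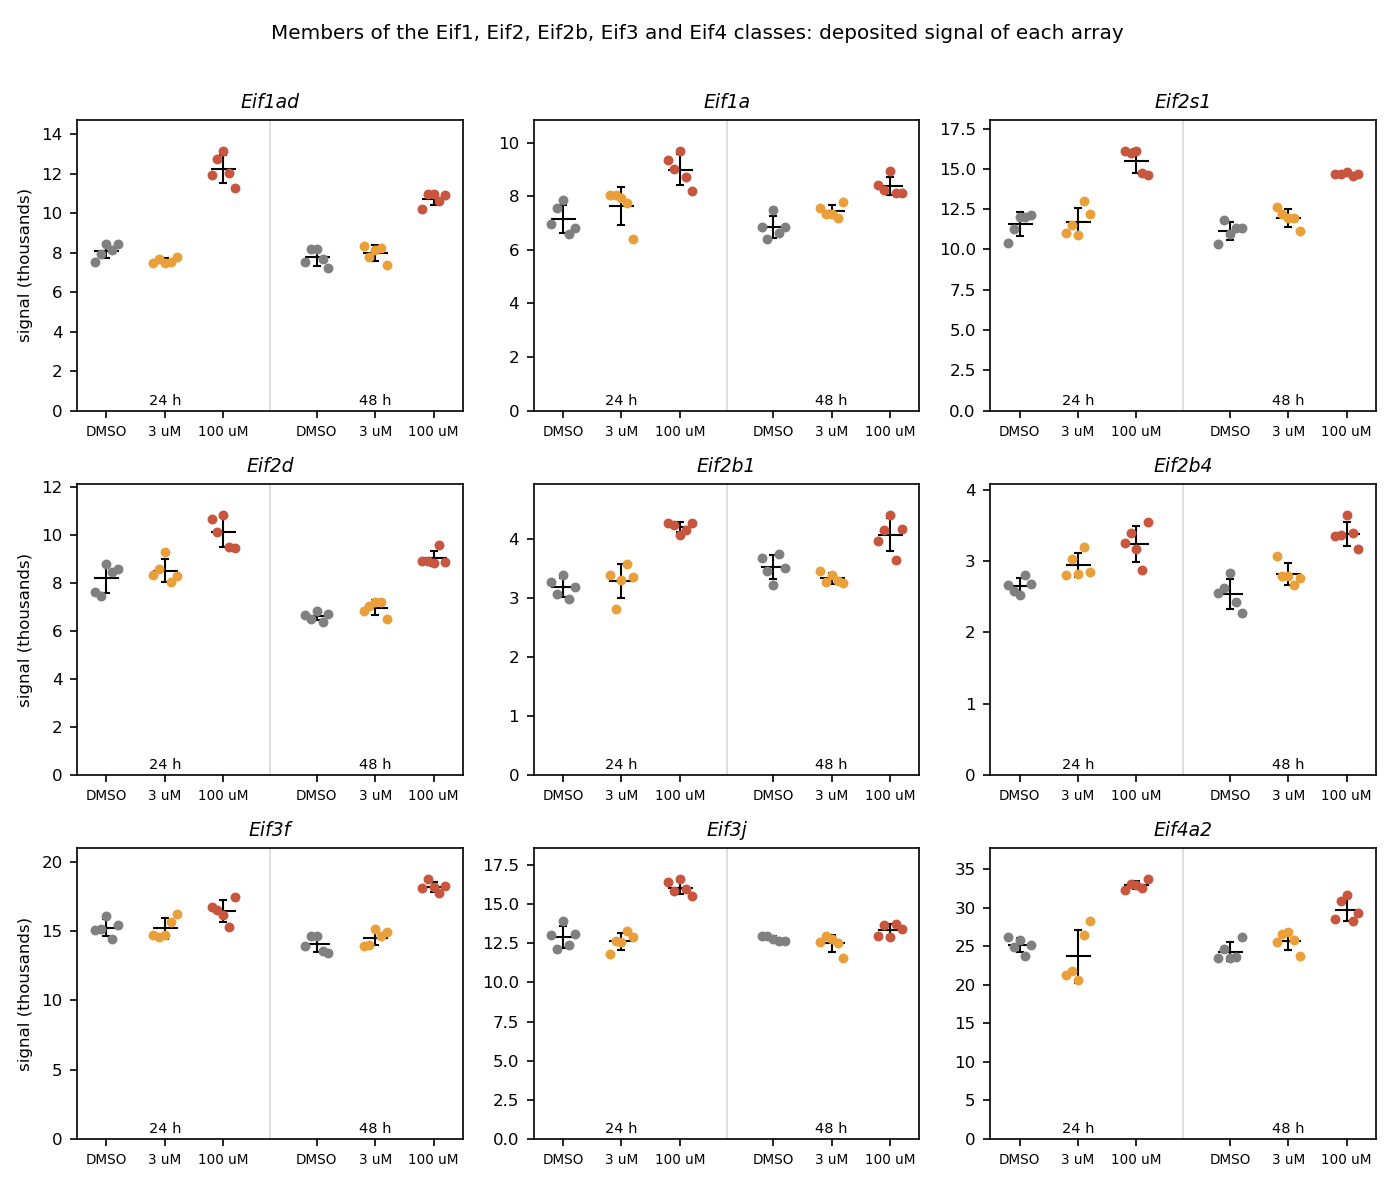
Deposited signal (divided by 1000) of each array for 9 members of the Eif1, Eif2, Eif2b, Eif3 and Eif4 classes by dose at 24 h and 48 h; bars give the mean and SD of 5 arrays. The 100 uM arrays of Eif1ad, Eif1a, Eif2s1, Eif2d and Eif4a2 lie above all DMSO arrays at both times, Eif3j separates at 24 h only and Eif3f at 48 h only.

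The eIF2 class held the 3 subunits of eIF2, the Y-linked copy of its gamma subunit, and the alternative tRNA carriers eIF2A and eIF2D. At 24 h 5 of these 6 genes rose, and at 48 h 3 of them. Eif2s1, the alpha subunit and the substrate of the stress kinases, read 16098, 15979.7, 16081, 14718 and 14624 at 100 uM and 24 h, against 10409, 11269.7, 11984, 12030.1 and 12141 in DMSO. After 48 h the signal was 14679.7, 14668, 14791, 14566 and 14664 at 100 uM, against 10311, 11839.7, 10949, 11357 and 11343 in DMSO. The groups were apart at both times, with log2 fold changes of 0.42 ± 0.054 (SE, adjusted p = 1.04e-07) and 0.40 ± 0.054 (SE, adjusted p = 3.88e-07). The beta subunit gene Eif2s2 (0.25, adjusted p = 0.00292) and the gamma subunit gene Eif2s3 (0.22, adjusted p = 0.0355) rose at 24 h and were not called at 48 h (0.13 and 0.094). The Y-linked copy Eif2s3y had a log2 fold change of 0.015 at 24 h and 0.10 at 48 h, neither called.

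Eif2d, a factor that can deliver tRNA to the ribosome without GTP, had a signal of 10669, 10148, 10834, 9529 and 9469 at 100 uM and 24 h, against 7649, 7451, 8808, 8480.3 and 8604 in DMSO. At 48 h the values were 8939, 8911, 8861, 9611 and 8895 at 100 uM, against 6689, 6503, 6822, 6392 and 6722 in DMSO. The 100 uM arrays were higher throughout, with log2 fold changes of 0.31 ± 0.054 (SE, adjusted p = 2.85e-05) and 0.45 ± 0.054 (SE, adjusted p = 4.53e-08). Eif2d also fell in DMSO between the times, as given below. Eif2a, which can carry initiator tRNA in place of eIF2 on some messages, averaged 9432 ± 604 at 100 uM and 8062 ± 366 in DMSO at 24 h, and 9262 ± 281 and 7525 ± 161 at 48 h (SD, n = 5 each). Its log2 fold changes were 0.23 ± 0.05 (SE, adjusted p = 0.000465) and 0.30 ± 0.05 (SE, adjusted p = 1.08e-05).

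Of the 5 subunits of eIF2B, the exchange factor that recharges eIF2 with GTP, 3 rose at 24 h and 2 at 48 h. The alpha subunit gene Eif2b1 read 4263, 4227, 4067, 4146 and 4262 at 100 uM and 24 h, against 3262, 3067, 3390.3, 2986 and 3188 in DMSO, and the groups were apart. The values at 48 h were 3970.01, 4157, 4397, 3648 and 4165 at 100 uM, against 3677, 3456, 3221, 3742 and 3507 in DMSO, where 1 array at 100 uM lay within the DMSO range. Its log2 fold changes were 0.40 ± 0.061 (SE, adjusted p = 2.89e-06) and 0.21 ± 0.061 (SE, adjusted p = 0.00804).

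The delta subunit gene Eif2b4 read 3252, 3392, 3171, 2872 and 3545 at 100 uM and 24 h, against 2667, 2584, 2519, 2801 and 2685 in DMSO. The arrays at 48 h gave 3354, 3365, 3643, 3389 and 3166 at 100 uM, against 2552, 2623, 2829.5, 2424 and 2267 in DMSO. All 100 uM arrays were above all DMSO arrays, with log2 fold changes of 0.29 ± 0.065 (SE, adjusted p = 0.000598) and 0.42 ± 0.065 (SE, adjusted p = 4.5e-06). The gamma subunit gene Eif2b3 rose at 24 h (0.27 (adjusted p = 0.0223)) and not at 48 h (0.067 (adjusted p = 0.64)). The beta and epsilon subunit genes, Eif2b2 and Eif2b5, passed at neither time, with log2 fold changes of -0.12 and 0.091 at 24 h and 0.15 and 0.21 at 48 h.

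The 4 kinases of eIF2 alpha were not called higher at 100 uM at either time, and 1 fell at 24 h. That gene was Eif2ak3, which encodes PERK, the kinase that senses unfolded proteins in the endoplasmic reticulum. Eif2ak3 read 1662, 1287, 1704, 1912 and 1562 at 100 uM and 24 h, against 2310.3, 2313, 1660.1, 1804 and 1955 in DMSO, so that the groups overlapped. At 48 h it read 1769.96, 1948, 1969.5, 2055 and 1777 at 100 uM, against 1833, 2052, 2108, 1997 and 2193 in DMSO. The log2 fold change was -0.30 ± 0.097 (SE, adjusted p = 0.013) at 24 h and -0.10 ± 0.097 (SE, adjusted p = 0.488) at 48 h. Eif2ak1, the heme-regulated kinase, had log2 fold changes of 0.065 and 0.12, and Eif2ak2, the double-stranded RNA sensor PKR, of -0.00049 and 0.066, none called. Eif2ak4, the amino acid sensor GCN2, was not called at 48 h (0.27 (adjusted p = 0.231)), although every 100 uM array (1193 to 1905) lay above every DMSO array (1064 to 1193), the closest 2 by less than 1 unit of signal.

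The eIF3 complex, the scaffold that links the small ribosomal subunit to the messenger RNA and eIF4G, is the largest of the initiation factors. At each time 8 of its 11 measured members rose and none fell, with a median log2 fold change of 0.22 at 24 h and 0.24 at 48 h. Called higher at both times were Eif3b, Eif3c, Eif3d, Eif3h, Eif3i, Eif3k and Eif3l, with log2 fold changes from 0.15 (Eif3l) to 0.29 (Eif3b) at 24 h and from 0.20 (Eif3c) to 0.36 (Eif3i) at 48 h. With the mean of a gene's probe sets in limma, Eif3k was not called at 24 h (0.076, adjusted p = 0.643). Eif3h then lost its call at both times and Eif3c at 48 h. Eif3i, a WD-repeat subunit, averaged 12471 ± 684 at 100 uM and 10461 ± 606 in DMSO at 24 h, and 12375 ± 417 and 9678 ± 469 at 48 h. Eif3a, the largest subunit, and Eif3m were called at neither time (Eif3a 0.045 and 0.076, Eif3m -0.0085 and -0.0041). Eif3e, known from a probe set that also matches its copy Eif3el1, had log2 fold changes of 0.22 and 0.28, both called in the fit over all probe sets.

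Within eIF3, the probe sets chosen for Eif3f and Eif3j were called at different times. Eif3f, a subunit that also binds mTOR and S6K1 in mammalian cells, read 16725, 16496, 16167, 15259 and 17469 at 100 uM and 24 h, against 15047, 15155, 16095, 14438 and 15458 in DMSO. The 48 h arrays read 18126, 18719, 18169, 17729 and 18224 at 100 uM, against 13934, 14657, 14652, 13591 and 13386 in DMSO. The groups overlapped at 24 h (0.11 ± 0.046 (SE, adjusted p = 0.0682)) and were apart at 48 h (0.37 ± 0.046 (SE, adjusted p = 6.51e-08)).

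Eif3j, a loosely attached subunit at the decoding centre, showed the opposite order in its chosen probe set. Its signal was 16440.3, 15839, 16582, 15966 and 15514 at 100 uM and 24 h, against 13031, 12118, 13898, 12366 and 13119 in DMSO. After 48 h the signal was 12983, 13644, 12905, 13721 and 13418 at 100 uM, against 12949.6, 12983, 12801, 12620.00 and 12626 in DMSO. The groups were apart at 24 h (0.32 ± 0.045 (SE, adjusted p = 7.68e-07)) and overlapped at 48 h (0.059 ± 0.045 (SE, adjusted p = 0.343)).

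The difference between the times, tested as the 100 uM effect at 48 h minus that at 24 h, passed for 3 members, 1 upward and 2 downward, while 0.616% of all genes passed upward and 1.04% downward. It was 0.27 ± 0.065 (SE, adjusted p = 0.0259) for Eif3f, -0.26 ± 0.064 (SE, adjusted p = 0.0261) for Eif3j and -0.51 ± 0.099 (SE, adjusted p = 0.00267) for Eif4ebp3. A second probe set of Eif3j was called higher at both times (0.44 and 0.23), and its own difference, -0.22, was not called. With each array centred on its median none of the 3 differences passed. Array medians ranged from 362 to 471.

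In the eIF4 class 7 of 12 members rose and 2 fell at 24 h, and 5 rose and 1 fell at 48 h. The 2 that fell at 24 h are a share near the 15.8% of all genes that fell. The helicase genes Eif4a1 and Eif4a2 and the exon junction helicase Eif4a3 rose at both times. Eif4a2 read 32280.1, 33068, 32902, 32615 and 33666 at 100 uM and 24 h, against 26175, 24943, 25848, 23757 and 25221 in DMSO. The values at 48 h were 28484, 30908, 31630.3, 28322 and 29381 at 100 uM, against 23461, 24708, 23490.5, 23547 and 26245 in DMSO. The groups were apart, with log2 fold changes of 0.39 ± 0.064 (SE, adjusted p = 9.64e-06) and 0.29 ± 0.064 (SE, adjusted p = 0.00045). A second, dimmer probe set of Eif4a2 was higher at 24 h (0.55, called) and not at 48 h (-0.03). For Eif4a1 the log2 fold changes were 0.23 and 0.21, and for Eif4a3 0.34 and 0.33.

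Eif4b, which stimulates the eIF4A helicase, read 7772, 9052, 7822, 9747 and 7701 at 100 uM and 24 h, against 6206, 7239, 8356, 6730.1 and 7201 in DMSO, with overlap. The arrays at 48 h gave 9219.5, 9438, 9013, 8955 and 8166 at 100 uM, against 6602, 5937, 6055, 5362 and 6174 in DMSO, with none. The log2 fold change was 0.24 ± 0.079 (SE, adjusted p = 0.0178) at 24 h and 0.57 ± 0.079 (SE, adjusted p = 4.93e-07) at 48 h, and the difference between the times did not pass (0.34 (adjusted p = 0.162)). Its second probe set gave 0.22 and 0.43, both called higher. Eif4h, a relative of Eif4b, was called at 48 h (0.22 (adjusted p = 0.01)) and not at 24 h (0.16 (adjusted p = 0.0596)).

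The cap-binding protein genes did not all move the same way. Eif4e, the cap-binding subunit of eIF4F, averaged 21123 ± 991 at 100 uM and 17791 ± 964 in DMSO at 24 h and rose (0.25 (adjusted p = 0.000692)), and Eif4e2, a homologue that does not bind eIF4G well, rose at 24 h (0.16 (adjusted p = 0.0268)). Neither was called at 48 h (0.082 and 0.069). Eif4e3, the third member of the family, fell at both times: it ranged over 945 to 1503 at 100 uM and 1801 to 2401 in DMSO at 24 h, and over 1150.5 to 1938 and 2528 to 2985 at 48 h. No 100 uM array reached the DMSO range, and the log2 fold changes were -0.63 ± 0.12 (SE, adjusted p = 8.82e-05) and -0.72 ± 0.12 (SE, adjusted p = 1.25e-05). Its second probe set was called lower too, with -0.42 and -0.63.

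Among the scaffolds, Eif4g3 fell at 24 h, where its arrays ranged over 1599 to 2055 at 100 uM and 2382 to 2977 in DMSO (-0.49 ± 0.15 (SE, adjusted p = 0.0103)), and it was not called at 48 h (-0.13 (adjusted p = 0.553)). Eif4g1, the main scaffold, was called at neither time (-0.20 (adjusted p = 0.115) and 0.028 (adjusted p = 0.859)). Eif4g2, which supports initiation without the cap-binding protein, rose at 24 h (0.16 (adjusted p = 0.0123)), while another of its probe sets had -0.14, not called. Eif4enif1, the carrier of eIF4E into the nucleus, had log2 fold changes of 0.11 and 0.12 with a standard error of 0.22, and was not called.

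**Figure D4:**
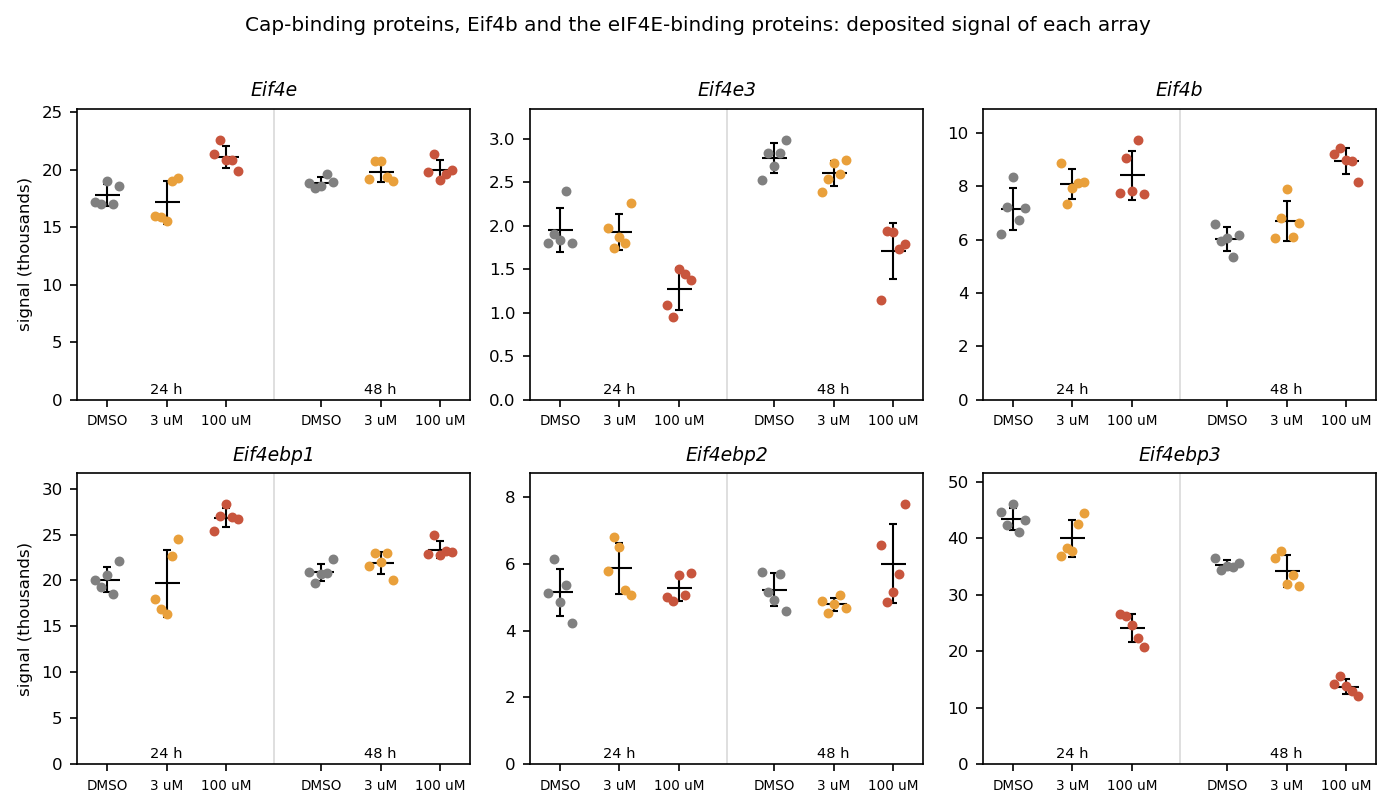
Deposited signal (divided by 1000) of each array for the cap-binding genes Eif4e and Eif4e3, for Eif4b and for the 3 eIF4E-binding protein genes by dose at 24 h and 48 h; bars give the mean and SD of 5 arrays. Eif4ebp3 at 100 uM averaged 24101 at 24 h and 13711 at 48 h, below all DMSO and 3 uM arrays, and Eif4e3 was lower at 100 uM at both times.

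The genes of the 3 eIF4E-binding proteins, which repress cap-dependent initiation, each gave another result at 100 uM. Eif4ebp3 fell more than any other member at both times. Its signal was 26574, 26237, 24593, 22305 and 20796 at 100 uM and 24 h, against 44637, 42322, 46048, 41050.00 and 43206 in DMSO. At 48 h it read 14241, 15577, 13825, 12875 and 12037 at 100 uM, against 36595, 34324, 35100.5, 34854 and 35704 in DMSO. The 2 groups were far apart: the signal at 100 uM was 0.55 times that in DMSO at 24 h and 0.39 times at 48 h, with log2 fold changes of -0.86 ± 0.07 (SE, adjusted p = 8.9e-12) and -1.37 ± 0.07 (SE, adjusted p = 7.04e-17). Eif4ebp3 had 1 probe set, so no other probe set tests it.

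Eif4ebp1, the best known of the 3 and a substrate of mTORC1, rose at 24 h. It read 25429, 26999.7, 28306, 26908 and 26658 at 100 uM and 24 h, against 20012, 19325, 20570.1, 18498 and 22090.1 in DMSO. The 48 h arrays read 22841, 24917, 22831, 23191 and 23112 at 100 uM, against 20969.7, 19703, 20672, 20854 and 22297 in DMSO. The groups were apart at both times, but only the change at 24 h passed the test, with 0.42 ± 0.076 (SE, adjusted p = 3.59e-05) against 0.16 ± 0.076 (SE, adjusted p = 0.101) at 48 h. This SE rests on the spread of all 6 groups. The SD of the signal was 3643 at 3 uM and 24 h. At 48 h it was 875 at 100 uM and 928 in DMSO. The missing call at 48 h thus does not show that the change was confined to 24 h. The difference between the times was -0.26 (adjusted p = 0.325). Eif4ebp2 was called at neither time, with 0.042 (adjusted p = 0.798) and 0.18 (adjusted p = 0.175).

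In the eIF5 class, Eif5a2 set aside, Eif5b was called higher at both times and Eif5a at neither. Eif5b, the GTPase that joins the ribosomal subunits, read 4035, 3757, 3709, 4068 and 2787 at 100 uM and 24 h, against 3271, 2888, 2809, 2969 and 2847 in DMSO. After 48 h the signal was 3579, 3593, 3387, 3225 and 3519.9 at 100 uM, against 2598, 2905, 2389.7, 2397 and 2857 in DMSO. The last 100 uM array at 24 h lay below all DMSO arrays and the groups were apart at 48 h, with log2 fold changes of 0.30 ± 0.11 (SE, adjusted p = 0.0289) and 0.40 ± 0.11 (SE, adjusted p = 0.00411). Its other probe sets disagreed: 1 had 0.25 and 0.20 and 1 had -0.32 and -0.33, none of them called.

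Eif5a2, the second gene for the hypusine-bearing factor eIF5A, was dim. It read 477, 599, 620.5, 618 and 329 at 100 uM and 24 h, against 398, 260.5, 197, 221 and 197 in DMSO. The values at 48 h were 515, 434, 432, 504 and 631 at 100 uM, against 157, 272, 252, 319 and 257 in DMSO. Its signal exceeded the array's median on 10 of 30 arrays, 4 at 100 uM and 24 h, 5 at 100 uM and 48 h and 1 at 3 uM and 24 h, so it entered the test through the arrays where it was high. The log2 fold changes, given as a description with no test, were 1.07 and 1.03. Eif5a itself was not called, with 0.20 (adjusted p = 0.051) and 0.20 (adjusted p = 0.0655).

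Eif5, the GTPase-activating protein of eIF2, was known from 3 probe sets that also match the pseudogene Eif5-ps1. They did not agree: log2 fold changes at 24 h and 48 h were 0.51 and 0.48 in the first, 0.31 and 0.25 in the second, called in both, and 0.057 and -0.021 in the third, not called.

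Eif6, which keeps the ribosomal subunits apart, read 22147, 24334, 21615, 20641 and 20907 at 100 uM and 24 h, against 17931, 17581, 21772, 19586 and 21145 in DMSO. The arrays at 48 h gave 22222, 22365, 22224, 22106 and 20581 at 100 uM, against 20552, 20051, 18596, 19631 and 16359 in DMSO. The groups overlapped at 24 h and were just apart at 48 h, with log2 fold changes of 0.16 ± 0.07 (SE, adjusted p = 0.0659) and 0.21 ± 0.07 (SE, adjusted p = 0.0215).

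Over all classes, 17 members had more than 1 probe set past the filter, which gave 22 further probe sets. At 24 h 16 of these had the sign of the gene's chosen probe set, and at 48 h 18 did. Of the 15 further probe sets that belonged to genes called at 24 h in the fit over all probe sets, 13 had the same sign and 7 the same call, and of the 13 at 48 h, 11 had the same sign and 3 the same call. None was called in the opposite direction.

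At 3 uM few initiation factor genes were called. At 24 h 4 of the 49 rose and none fell, while 2.99% of all genes rose and 1.22% fell. At 48 h none was called in either direction, as for all but 0.0196% of genes upward and 0.0196% downward, and limma gave an unadjusted p under 0.05 to 2 members upward, Eif2b4 and Eif6, and to 0 downward. The comparisons of both doses with DMSO share the DMSO arrays.

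The 4 genes called at 3 uM and 24 h were Eif3c, Eif3a, Eif4g1 and Eif5b. Eif3c, a core subunit of eIF3, read 12844, 13564, 13924, 10523 and 10704 at 3 uM, against 9336, 8879, 10162, 9671 and 9618 in DMSO (0.36 ± 0.064 (SE, adjusted p = 0.00394)). Eif4g1 read 8924, 8839, 9359.9, 6567 and 6077 at 3 uM, against 7154, 5259, 5909, 5425 and 5583 in DMSO (0.43 ± 0.097 (SE, adjusted p = 0.0145)). In both genes the first 3 arrays at 3 uM stood above the other 2. Eif3a read 14791, 14892, 14713, 13918 and 12832 at 3 uM, against 12292, 12554, 13649, 12628 and 11405 in DMSO (0.19 ± 0.053 (SE, adjusted p = 0.0396)). Eif5b read 4255, 4423, 4575, 3326 and 2798 at 3 uM, against 3271, 2888, 2809, 2969 and 2847 in DMSO (0.37 ± 0.11 (SE, adjusted p = 0.0475)). In all 4 genes the first 3 arrays are the high ones, and they are the arrays with the beta-actin ratio of 3.93 to 5.30.

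Without those 3 arrays 0 of the 49 members were called at 3 uM and 24 h, and over all 10222 genes 0 rose and 4 fell (0% and 0.0391%). The log2 fold changes were then 0.16 for Eif3c, 0.12 for Eif4g1, 0.098 for Eif3a and 0.047 for Eif5b. With the log2 beta-actin ratio as a covariate 0 members were called as well, and over all genes 0 rose and 1 fell (0% and 0.00978%). The other probe sets of Eif3c, Eif3a and Eif4g1 had log2 fold changes of -0.17, -0.18 and -0.23 to -1.55, and the 2 of Eif5b -0.032 and 0.28, none called. The same 3 arrays stood apart in members that were not called: Eif4g3 read 3938, 3973, 4133, 2501 and 1814 at 3 uM and 24 h, against 2977, 2486, 2499, 2382 and 2413 in DMSO, and Eif1b read 3268, 3221, 2410.01, 4507 and 4786 at 3 uM, against 4417, 5171, 4236, 4254 and 4496 in DMSO. The first 3 arrays were high for Eif4g3 and low for Eif1b.

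**Figure D5:**
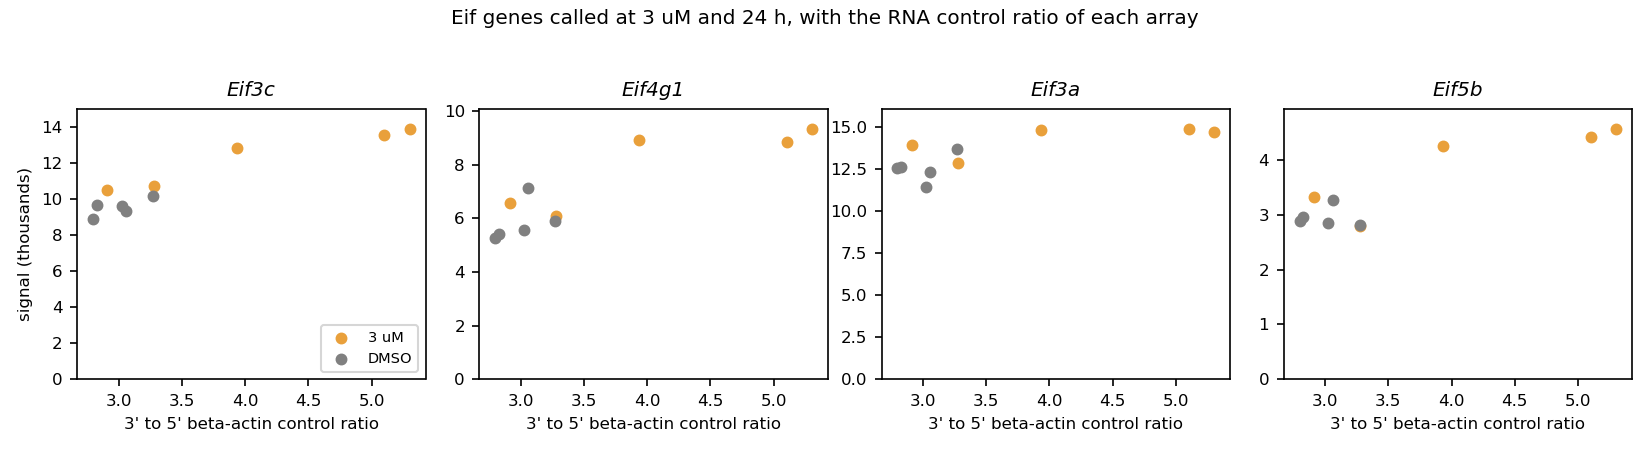
Deposited signal (divided by 1000) of the 4 members called at 3 uM and 24 h against the 3' to 5' ratio of the beta-actin control probe sets, 1 point for each of the 5 arrays at 3 uM and the 5 arrays in DMSO at 24 h. The 3 arrays at 3 uM with a ratio of 3.93 to 5.30 carry the highest signals of each gene.

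Set against 3 uM, 21 members rose and 8 fell at 100 uM and 24 h, while 19.8% of all genes rose and 19.1% fell. At 48 h 20 members rose and 2 fell, while 16.2% of all genes rose and 12.6% fell. Without Eif5a2, 20 rose at 24 h and 19 at 48 h. These comparisons share the 100 uM arrays with those against DMSO. Without the first 3 arrays at 3 uM the counts at 24 h were 12 up, Eif5a2 included, and 3 down, while 14.6% of all genes rose and 12.3% fell, the 3 that fell being Eif4ebp3, Eif4e3 and Eif4g1. Eif4ebp3 read 36888, 38326, 37687, 42585 and 44481 at 3 uM and 24 h and 36492, 37812, 31914, 33477 and 31471 at 3 uM and 48 h, all above every 100 uM array of the same time. Its log2 fold change at 100 uM over 3 uM was -0.73 ± 0.07 (SE, adjusted p = 2.94e-10) at 24 h, -0.86 without the 3 arrays, and -1.32 ± 0.07 (SE, adjusted p = 3.99e-16) at 48 h. Eif1ad read 7469.7, 7679, 7474, 7544 and 7799 at 3 uM and 24 h and 8355, 7796, 8139, 8254 and 7350.5 at 3 uM and 48 h, below every 100 uM array of the same time, with 0.69 ± 0.051 (SE, adjusted p = 1.03e-12) and 0.43 ± 0.051 (SE, adjusted p = 4.02e-08). Both genes at 3 uM lay close to DMSO, with log2 fold changes over DMSO of -0.12 and -0.048 for Eif4ebp3 and -0.091 and 0.042 for Eif1ad, none called.

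In the vehicle cultures 4 members changed between the times. At 48 h against 24 h in DMSO 1 rose and 3 fell, while 2.57% of all genes rose and 1.91% fell. Eif4e3 rose, with 2528 to 2985 at 48 h and 1801 to 2401 at 24 h (0.52 ± 0.12 (SE, adjusted p = 0.00704)). Eif2d fell to 6392 to 6822 at 48 h, against 7451 to 8808 at 24 h (-0.30 ± 0.054 (SE, adjusted p = 0.00035)). Eif4ebp3 fell by 0.30 and Eif2b2 by 0.32 on the log2 scale (adjusted p = 0.00721 and 0.0408). Under 21 other ways of processing, described below, Eif2d and Eif4e3 kept their calls in all. Eif2b2 kept its call in only 9. Eif4ebp3 kept its call in 20 and lost it with each array centred on its median. The 48 h and 24 h arrays did not overlap in any of the 4, and in no other member; 3.38% of all genes lay wholly higher and 3.07% wholly lower at 48 h. Eif4ebp3 thus fell with time in DMSO and fell at 100 uM at both times, while Eif4e3 rose with time and fell at 100 uM.

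Lists of other genes around initiation, chosen with earlier results of these data known, are given by their counts beside the shares of all genes above. Of 17 accessory factors tested (poly(A)-binding, cap-binding and scanning proteins), 6 rose and 3 fell at 100 uM and 24 h, and 5 rose and 3 fell at 48 h. The share that fell was near that of all genes, 15.8% at 24 h and 14.5% at 48 h. Pdcd4, an inhibitor of eIF4A, averaged 2329.8 ± 232 at 100 uM and 3592 ± 374 in DMSO at 24 h (-0.62 (adjusted p = 7.45e-08) and -0.53 (adjusted p = 1.66e-06) at 48 h). Igf2bp3, an RNA-binding protein, fell as well (-0.81 (adjusted p = 2.52e-06) and -0.64 (adjusted p = 0.000101)), and Denr, a partner of Mcts1 in reinitiation, rose (0.29 (adjusted p = 9.49e-05) and 0.31 (adjusted p = 4.08e-05)). Of 14 genes listed as elongation and termination factors, 7 rose and none fell at each time. The 14 include Eef1e1 and Tsr2 (0.38 and 0.29, both called), which are not such factors. Pelo, which rescues stalled ribosomes, averaged 8084 ± 931 at 100 uM and 3447 ± 436 in DMSO at 24 h (1.23 (adjusted p = 8.06e-14) and 0.96 (adjusted p = 2.38e-11)). The release factor gene Etf1 (0.59 and 0.49) and Eef1e1, a scaffold of the tRNA synthetase complex (0.48 and 0.36), rose at both times.

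Of 22 kinases, phosphatases and regulators acting on initiation factors, 8 rose and 1 fell at 100 uM and 24 h, and 7 rose and 1 fell at 48 h. Ppp1r15a, the GADD34 subunit that directs the phosphatase of eIF2 alpha, averaged 2952 ± 306 at 100 uM and 1752 ± 191 in DMSO at 24 h, and 2746 ± 190.04 and 1673 ± 251 at 48 h (0.75 (adjusted p = 3.88e-06) and 0.72 (adjusted p = 7.93e-06)). Rheb, the GTPase that activates mTORC1, rose at both times (0.32 and 0.19), and Impact, an inhibitor of GCN2 activation, rose at 24 h (0.79 (adjusted p = 0.000103)) and was not called at 48 h (0.32 (adjusted p = 0.106)). ATF4 and CHOP are transcription factors made when eIF2 alpha is phosphorylated. Of 16 genes listed as their targets, 9 rose and 2 fell at 24 h, and 4 rose and 6 fell at 48 h. The 16 include Atf4 and Ddit3 themselves, and Ppp1r15a and Sesn2, which are also counted among the 22 genes above. The difference between the times passed downward for 5 of the 16 and upward for 0. Ddit3, which encodes CHOP, averaged 5500.5 ± 426 at 100 uM and 2614 ± 218 in DMSO at 24 h, and 6584 ± 442 and 3045 ± 222 at 48 h (1.07 (adjusted p = 8.82e-14) and 1.11 (adjusted p = 3.14e-14)). Slc3a2, an amino acid transporter subunit, rose (0.56 and 0.48), while Atf5 fell (-0.38 (adjusted p = 0.000155) and -0.75 (adjusted p = 1.12e-09)). Members of this list moved in both directions at each time.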

How the data were processed

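Biotin-labelled RNA of 30 cultures was measured on rat expression arrays, per the labels. The deposited values are linear intensities (probe set signals) made by the authors with MAS5, per the submitters' processing notes; its version is not given in the sources used here. Array medians ranged from 361.7 to 471.4. The number of arrays limits the precision.

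Gene names came from the platform annotation: of 31099 probe sets, 20832 had 1 symbol, 436 had several and 9831 had none. Values were log2 transformed with no pseudocount. Probe sets above their own array's median on at least 5 arrays were kept (17555), and each gene was represented by its brightest probe set (10222 genes). With limma 3.58.1 in R 4.3.3, the 30 arrays entered 1 fit of 6 group means, which left 24 residual degrees of freedom, and eBayes was run with a trend. The 8 comparisons were two-sided, adjusted by Benjamini-Hochberg over all genes and called under 0.05. The pipeline was tested on simulated data with known changes at 100 uM and 24 h. It recovered 38% of 50 changes of 1.25-fold, 72% of 50 of 1.5-fold and 89% of 100 of 2-fold. There were 4 false calls among 10222 genes. Far fewer genes were changed in the simulation than were called at 100 uM, which makes the Benjamini-Hochberg adjustment stricter there. The changed genes were also drawn from all genes tested, bright or dim. Small changes were often missed in the simulation, but its percentages do not give the share of members missed. A member not called may still have changed.

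Genes and lists were chosen with earlier results of these data known. Values of every array were given for up to 2 members of each class with the smallest adjusted p at 100 uM, for members called at 3 uM and for those whose 100 uM effect differed between times; Eif4e3, Eif4g3 and Eif1b were added after their values were seen. From each list up to 3 called genes were named, and Tsr2 was added. Replicates were numbered in accession order and were not used as pairs. Alternatives changed the scaling, filter, pseudocount, probe set, variance model, arrays fitted, array weights, run block, beta-actin covariate, threshold and each array in turn. Control probe sets were left out of the tests.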

Additional observations from a re-analysis of the deposited data

Results flagged for a closer look

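A single array stood apart from the other 4 of its group by Dixon's criterion for 5 values in 6 of 114 groups examined over 19 members, and chance alone gives about 1 in 20. Eif1a read 6415 on replicate 5 of 3 uM at 24 h, the lowest of its group. For Eif2d the highest array at 100 uM and 48 h, replicate 4, read 9611. Eif2ak3 was highest on replicate 3 of 3 uM at 48 h, with 2324. Eif4ebp1 reached 24917 on replicate 2 of 100 uM at 48 h. In Eif5b replicate 5 of 100 uM at 24 h was lowest, with 2787, below all 5 DMSO arrays. Eif6 was lowest on replicate 5 of 100 uM at 48 h, with 20581, a little above the highest DMSO array.

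The effect of 100 uM differed between the times in 3 members by the test of the difference itself. It was 0.27 higher on the log2 scale at 48 h than at 24 h for Eif3f, and the difference was -0.26 for Eif3j and -0.51 for Eif4ebp3. None of the 3 passed with each array centred on its median, and that of Eif3j did not pass with the mean of its probe sets.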

How the results depend on the processing

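Counts are members called higher and lower. With each array centred on its median, 15 members rose at 100 uM and 24 h and 13 at 48 h, 12 and 13 rose against 3 uM, 2 rose at 3 uM and 24 h, 1 fell in DMSO with time, and 0 differed between the times in either direction; among all genes called, 47.5% at 24 h and 44.6% at 48 h were then higher, against 55.6% and 56.6%. At a threshold of 0.01, 2 fell at 100 uM and 24 h, 11 rose at 100 uM against 3 uM at 48 h, 1 rose at 3 uM and 24 h, and 0 and 1 differed between the times. At 3 uM and 24 h, 1 rose with the mean of a gene's probe sets, 2 without a variance trend, 0 with only the compared groups, 0 with the beta-actin covariate, 0 without the first 3 arrays, 10 rose and 7 fell with array weights, and 1 fell after quantile normalization. Of all genes, 15.6% rose and 12.6% fell there with array weights, near the shares of the members. After quantile normalization 2.03% of all genes fell. At 100 uM against 3 uM and 24 h, 12 rose and 3 fell without those arrays, and 3 fell with the covariate. Array weights gave 5 that fell in DMSO with time, against 2.94% of all genes. The mean of probe sets gave 1 that differed downward between the times, against 0.92% of all genes. The causes were not tested. Leaving out each array gave 23 to 28 up and 3 to 4 down at 100 uM and 24 h, 22 to 24 and 2 at 48 h, 18 to 24 and 6 to 9 against 3 uM at 24 h, 17 to 19 and 2 at 48 h, 1 to 9 and 0 to 3 at 3 uM and 24 h, 0 and 0 at 3 uM and 48 h, 1 and 2 to 5 in DMSO with time, and 0 to 1 and 1 to 2 between the times. For 3 uM and 24 h, the shares of all genes then ran from 0.313% to 9.23% upward and from 0.0978% to 6.92% downward. Eif5a2 set aside, 15 of 31 calls at 100 uM and 24 h and 12 of 24 at 48 h held in each of 22 alternatives, the threshold of 0.01 included and other probe sets not. Another probe set turned the sign at 100 uM and 24 h for Eif3k (-0.13), Eif4g2 (-0.14) and Eif5b (-0.32), and at 48 h for Eif4a2 (-0.032) and Eif5b (-0.33). At 3 uM and 24 h it did so for Eif3a (-0.18), Eif3c (-0.17), Eif4g1 (-1.55, -0.25 and -0.23) and Eif5b (-0.032). At 100 uM against 3 uM it did so at 24 h for Eif3a (0.16, and 0.0097 as a mean of probe sets), Eif3k (-0.089) and Eif4g1 (0.98 and 0.25), and at 48 h for Eif4a2 (-0.049) and Eif5b (-0.22). The replicate numbers follow accession order and were not used as pairs. The runs of 6 array numbers, each with 1 array of every group, entered as a block gave 28 up and 4 down at 100 uM and 24 h, 23 and 2 at 48 h, and 5 and 0 at 3 uM and 24 h.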

Other observations

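Of 44 genes of cytosolic ribosomal proteins tested, 7 rose and none fell at 100 uM and 24 h, and 9 rose and none fell at 48 h, beside 19.8% and 18.9% of all genes upward. Their median log2 fold change was 0.11 and 0.08, against 0.22 and 0.21 for the Eif genes. At 100 uM against 3 uM and 24 h, 31 of the 44 rose, beside 19.8% of all genes, in a comparison that holds the 3 arrays with a high beta-actin ratio. These genes were not counted without those arrays.

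Ankhd1, an ankyrin repeat gene that lies just upstream of Eif4ebp3 in the RefSeq gene table and forms a read-through transcript with it in human, averaged 1193 ± 173 at 100 uM and 975 ± 276 in DMSO at 24 h, and 1368 ± 74.3 and 1180.4 ± 101 at 48 h (SD, n = 5 each). Its log2 fold changes of 0.32 (adjusted p = 0.0711) and 0.22 (adjusted p = 0.258) in limma did not pass the test, while Eif4ebp3 fell at both times.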
